A study of Homo sapiens with 12 samples.

Results

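The RNAs described here are 10 short noncoding RNAs that act in splicing, transcription or ribosomal RNA processing. They include the spliceosomal small nuclear RNAs U4 (RNU4-1, RNU4-2) and U5 (RNU5A-1, RNU5B-1). The minor spliceosome's U11, U12, U4atac and U6atac (RNU11, RNU12, RNU4ATAC, RNU6ATAC) are also among them. The 7SK RNA (RN7SK) and the RNA of RNase MRP (RMRP) complete the set. All were listed by name. A binding cluster was taken as theirs where the symbol stands among the gene names the authors gave it in a library of endogenous QKI. Those libraries held 20882 gene names. Each of the 10 had such a cluster, which is no result, since the list was made with earlier results of these data known. U6 genes were not included in the set and are given only for comparison. The same holds for the U5 variants RNU5D-1, RNU5E-1 and RNU5F-1, which also had endogenous clusters.

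The study mapped RNA contacts of QKI, an RNA-binding splicing regulator with a KH domain and a nuclear isoform named QKI-5, by eCLIP. In this assay RNA is crosslinked to protein with ultraviolet light, immunoprecipitated (IP), sequenced and set against a size-matched input. The mutant group held cells transfected with myc-QKI-5(K120A; R124A), which carries 2 substituted residues, and was precipitated with an anti-MYC antibody. The wild type group held cells transfected with myc-QKI-5 and was precipitated with the same antibody. The endogenous group held cells with no modification and was precipitated with an anti-QKI antibody. Transfection was transient, with 10 µg of plasmid and 72 h of culture, and the labels record no removal of the cells' own QKI in either transfected group. All cells were crosslinked at 254 nm with 400 mJ/cm2. Each group had 2 IP libraries and 2 inputs. Nothing in the labels says that the 2 libraries came from separate cultures, so the p-values below reflect a spread that may be technical.

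The labels give the cells as HEK293xT, and their protocols as HEK293T, a human embryonic kidney line, while the series' design note speaks of embryonic stem cells during cardiomyocyte differentiation. Among marker genes, 1 of 8 of the pluripotent list (DNMT3B) and 2 of 6 of the cardiomyocyte list (NKX2-5 and ACTN2) had a cluster in the endogenous libraries. Clusters per library numbered 231814 and 272728 for the mutant, 226962 and 273269 for wild type, and 384347 and 231844 for endogenous. Read depth per library is unknown, so no counting interval can be given. The mutant libraries had 94 and 829 clusters past the enrichment thresholds used below, against 4698 and 5171 in wild type libraries and 16231 and 12504 in endogenous libraries.

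In splicing, U4 and U5 join U6 in the tri-snRNP: U4 keeps U6 base-paired until the spliceosome is activated, and U5 holds the exon ends at the catalytic centre. The minor spliceosome, which removes a rare class of introns, uses U11 and U12 to recognise the splice site and branch point, and U4atac and U6atac in place of U4 and U6. 7SK is a scaffold made by RNA polymerase III that holds the elongation factor P-TEFb inactive, and RMRP is the catalytic RNA of an endonuclease that acts in ribosomal RNA processing. All are structured RNAs that reside mainly in the nucleus. The sequences of these RNAs and of their clusters were not analysed here.

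Every cluster of these RNAs in the endogenous libraries lay below input. Library 1 held 26 clusters at all 10 RNAs, with log2 folds of IP over input between −7.15 and −1.76 and a median of −3.17. Library 2 held 24 clusters at 9 RNAs, between −7.14 and −2.34 with a median of −3.87, and had no cluster named for RNU5B-1. Over all clusters, 40.4% in library 1 and 14.4% in library 2 were below input, with medians of 0.26 and 1.15. Among clusters the authors annotated as noncoding exons, the class of every cluster at these RNAs (those at RNU4-1, RNU4-2, RNU11, RNU12, RN7SK and RMRP also carry the name of a long noncoding RNA), 48.2% of 11570 and 23.0% of 6937 were below input. The deposited −log10 p was 0 for each of these clusters, because it scores enrichment only, and so it carries no error for a value below input.

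**Figure D1:**
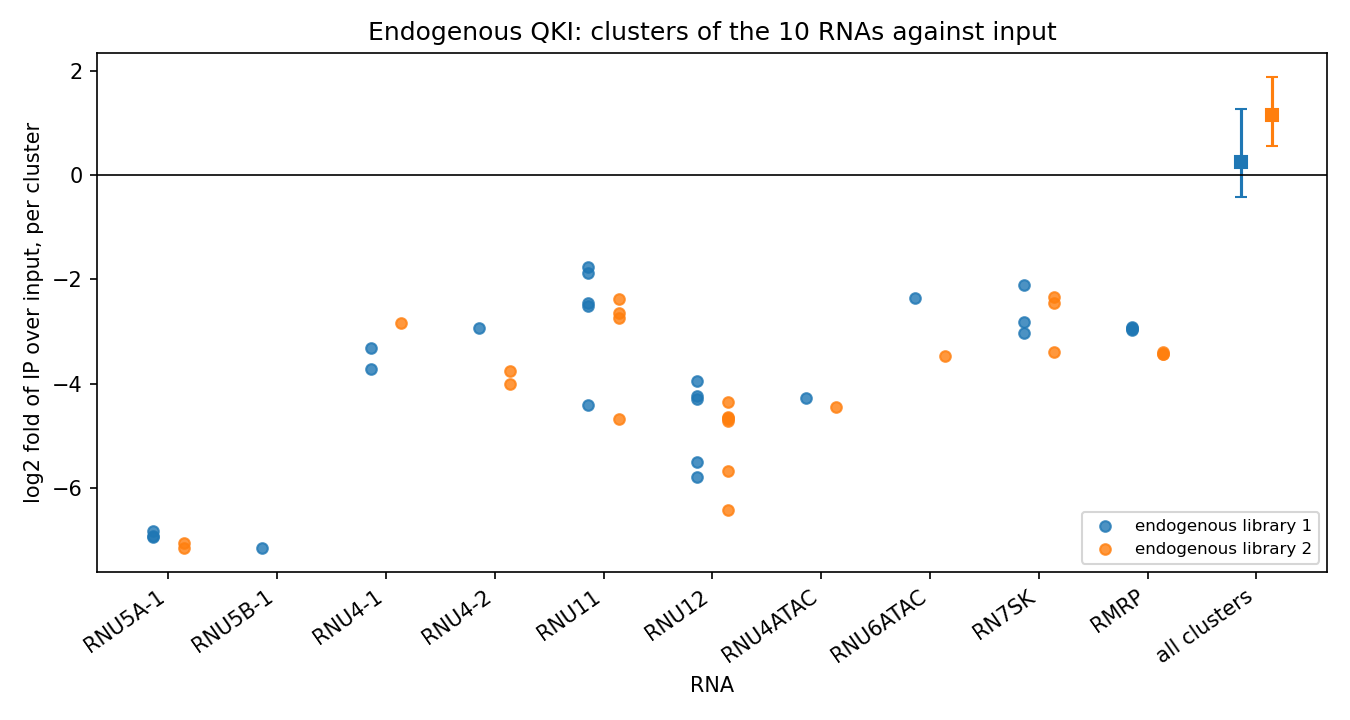
Log2 fold of IP over input (y axis) for each endogenous cluster at the 10 RNAs (x axis), library 1 in blue and library 2 in orange. Squares at the right give the median over all clusters of each library and bars its quartiles. All points at the 10 RNAs lie below 0, with the U5 genes near −7 and the medians of all clusters at 0.26 and 1.15.

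The RNAs stood at the low end of the genes of these libraries. A length-weighted mean over its clusters was taken for each gene, and 15577 genes had one in both libraries, with a median of 0.93 and 17.0% below input. The 9 RNAs found in both libraries ranked between 1 and 271 from the lowest, and 1.73% of the genes were lower than the highest of them, RNU11. Small nucleolar and Cajal body RNAs and transfer RNA genes made up most of the 30 lowest genes. The log2 fold is a ratio to input and not a level, so this order does not rank how much of each RNA was present.

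Coordinates given here and below beside an RNA's name are the outer bounds of its endogenous clusters and not those of the gene. A weighted mean covers only the bases in clusters. Among the U5 genes, RNU5A-1 (hg19 chromosome 15, 65588417 to 65588505, plus strand) had weighted log2 folds of −6.90 in library 1 and −7.07 in library 2. Its mean of −6.98 ± 0.12 (SD, n = 2) is an IP signal 126-fold lower than input, and was the lowest of the 15577 genes. RNU5B-1 (chromosome 15, 65597066 to 65597131, plus strand) had 1 cluster, at −7.15 in library 1, and none in library 2, so it has no replicate value. U5 variants outside the set were also below input, by different amounts: RNU5F-1 had −6.90 and −6.44, the second lowest gene, RNU5D-1 had −3.36 and −3.86, and RNU5E-1 had −2.66 and −2.96. The U5 genes share most of their sequence, and reads could be divided among them by the authors' alignment.

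The U4 genes lie close together on the minus strand of chromosome 12. RNU4-1 (120730982 to 120731042) had −3.59 and −2.83 in libraries 1 and 2, and RNU4-2 (120729644 to 120729708) had −2.92 and −3.93. Their means were −3.21 ± 0.54 for RNU4-1 and −3.43 ± 0.71 for RNU4-2 (SD, n = 2 each). RNU4-1 was the lower in library 1 and RNU4-2 the lower in library 2, so the pair could not be ordered. The copies are near-identical, and a read that fits both may be assigned to either.

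The minor spliceosome's 4 RNAs were all below input, in different degrees. RNU12, the branch point RNA (chromosome 22, 43011256 to 43011399, plus strand), had −4.51 and −4.85, a mean of −4.68 ± 0.24. RNU4ATAC (chromosome 2, 122288455 to 122288586, plus strand) had −4.26 and −4.44, a mean of −4.35 ± 0.13. Both were below every U4 value of their library. RNU6ATAC, its base-pairing partner (chromosome 9, 137029605 to 137029662, minus strand), had −2.36 and −3.47, a mean of −2.92 ± 0.78. RNU11, the splice site RNA (chromosome 1, 28975119 to 28975226, plus strand), had −2.47 and −2.68, a mean of −2.58 ± 0.15 (SD, n = 2 for each). RNU11 was thus 2.04 and 2.17 higher than RNU12 in the 2 libraries, on the log2 scale, although both belong to the same minor-class particle. RNU6ATAC was 1.90 and 0.97 higher than RNU4ATAC.

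RN7SK (chromosome 6, 52860490 to 52860748, plus strand) had −2.53 and −2.88, a mean of −2.71 ± 0.25. RMRP (chromosome 9, 35657880 to 35657967, minus strand) had −2.93 and −3.40, a mean of −3.17 ± 0.33 (SD, n = 2 each). In the order from lowest to highest, leaving out RNU5B-1, RNU5A-1, RNU12 and RNU4ATAC each lay below the next RNA in both libraries without overlap. From RNU4-2 through RNU4-1, RMRP, RNU6ATAC and RN7SK to RNU11, each neighbouring pair overlapped between libraries and did not differ beyond their spread. With 2 libraries there is no permutation test of this order that could reach 0.05.

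A limma fit covered all regions with a cluster in both endogenous libraries, where a region is a run of overlapping clusters. It tested against 0 the mean of 1 lead cluster per region and library, and not the weighted means above. At these RNAs the lead was the cluster of the region with the highest log2 fold. Of 104130 regions, 63706 were higher and 3017 lower than input at an adjusted p of at most 0.05, so 61.2% were called higher and 2.9% lower. All 13 regions of the 9 RNAs found in both libraries were lower, with a median of −3.15 against 1.50 over all regions. The adjusted p (limma, Benjamini-Hochberg) ran from 2.74e-33 at RNU5A-1 to 0.000511 at the 5′ region of RNU11. RNU5A-1 was tested as 1 region with a mean of −6.93 and RNU4ATAC as 1 with −4.35, while RNU12 fell into 2 regions, with −4.14 at its 5′ and −5.59 at its 3′ side (adjusted p = 1.35e-12 and 5.70e-22 by limma). RN7SK fell into 2 regions, with −2.28 at its 5′ and −3.11 at its 3′ side (adjusted p = 0.00013 and 1.37e-07 by limma). RNU11 fell into 3, with −2.07, −2.62 and −4.55 from 5′ to 3′. Its middle region is only 3 bases long and directly follows the first, so the 13 regions are not 13 independent results. Differences between regions of 1 RNA were not tested. In this fit limma drew every region's error to 1 common value, a standard error of 0.551, so the very small p-values rest on a spread shared by all regions. With each library centred on its own median, the calls split into 12164 higher and 8838 lower regions, or 42.1% lower among calls against 4.52% without centring. Of all regions, 11.7% were then called higher and 8.49% lower. The 13 regions were lower there too, with adjusted p between 0.00366 and 0.00631.

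Along several of the RNAs the fold changed from the first to the last listed cluster, taken 5′ to 3′. Stretches without a cluster have no value. In RNU11, library 1 gave −1.76, −1.87, −2.44, −2.51 and −4.41 in successive clusters, and library 2 gave −2.38, −2.65, −2.73 and −4.68. The last RNU11 cluster, at 28975207 to 28975226 in library 1, was thus the lowest in both libraries. RNU12 had −3.94 in its first cluster and −5.79 in its last in library 1, and −4.35 and −6.41 in library 2. The RNU12 values were near each other up to position 43011364 and lower from 43011366 on. RN7SK had −2.10 first and −3.03 last in library 1, and −2.45 and −3.40 in library 2, where the cluster between them was higher, at −2.34. Over its clusters RMRP was flat, at −2.92 first and −2.97 last in library 1 and −3.39 and −3.43 in library 2, and so was RNU5A-1. Over the 7 RNAs with at least 2 clusters in a library, the last cluster was lower than the first in 11 of 12 RNA and library pairs, some by less than 0.1. Clusters of 1 RNA share its reads and library and are no replicates, so this was given no test.

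**Figure D2:**
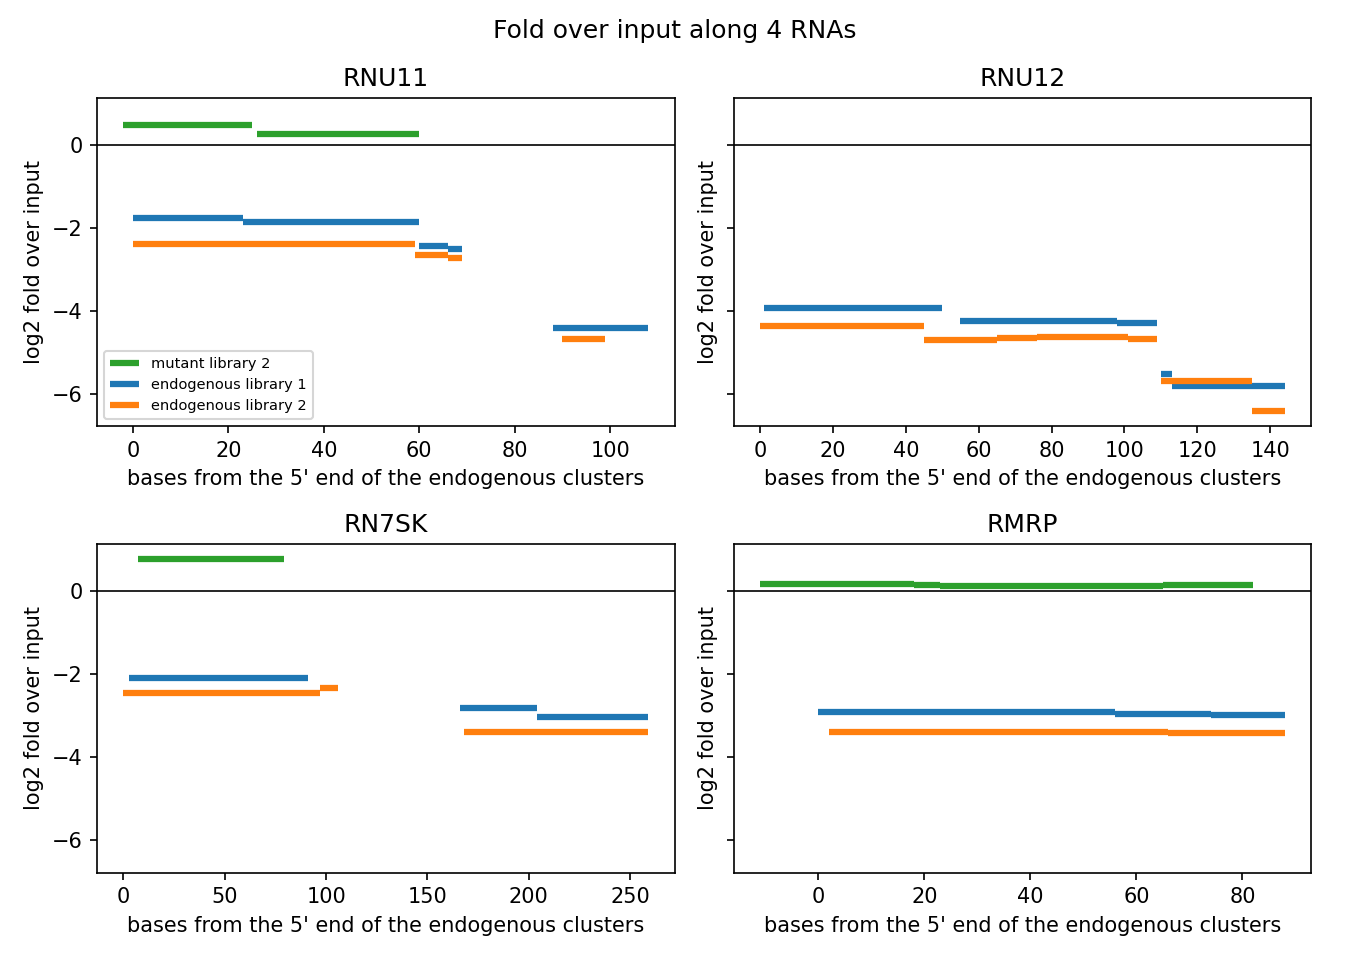
Log2 fold over input (y axis) along RNU11, RNU12, RN7SK and RMRP, by distance in bases from the 5′ end of the endogenous clusters (x axis), with each bar 1 cluster. Mutant library 2 is green and endogenous libraries 1 and 2 are blue and orange. In the first 3 RNAs the last endogenous cluster is lower than the first, though in library 2 RNU12 and RN7SK do not fall at every step. Values are flat in RMRP, and no mutant cluster was listed at RNU12.

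Neither the other RNAs nor the protein genes of the same particles formed a uniform group. Of 17 other small nuclear RNA genes looked for, 5 had an endogenous cluster, namely the 3 U5 variants above and 2 U6 genes. RNU6-1, a copy of the U6 RNA that pairs with U4, was at 4.49 and 2.77, with a −log10 p of 21.0 and 10.3. RNU6-8 was at 4.61 and 5.37. U6 and its tri-snRNP partners U4 and U5 therefore lay on opposite sides of input in both libraries. Of 10 other RNAs made by RNA polymerase III, 4 were found in each library. RPPH1, the RNA of RNase P and related to RMRP, had −4.73 and −4.28, while RNY4, a Y RNA, had 4.58 in library 1 and no cluster in library 2.

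Protein genes lay nearer to input. Of 7 genes for proteins of the 7SK complex and P-TEFb, 6 were found, with medians of −0.25 and 0.56. A cluster counted as enriched when its log2 fold and its −log10 p were both at least 3, which 4.22% and 5.39% of all clusters were in the 2 libraries. In the 7SK list this held only at CCNT2, the gene of a P-TEFb cyclin, for 3 of the list's 75 clusters in library 1 and 1 of 47 in library 2. The lead clusters of CCNT2 (those with the highest −log10 p) were at 5.36 and 5.24. Of 8 minor spliceosome protein genes, all 8 were found in library 1 and 7 in library 2, with medians of −0.17 and 1.18. RNPC3, which encodes a protein that binds U12, had 1 enriched cluster of 17 in each library, its lead cluster, at 5.27 and 5.10. SNRNP48 also had 1 of 18 in library 2. Of 12 tri-snRNP protein names, 11 were found, with medians of 0.04 and 0.27. PRPF3, whose protein binds the U4/U6 pair, had 1 of 11 and 2 of 7 clusters enriched, with lead clusters at 5.53 and 3.62. Enriched clusters were held by 5 tri-snRNP genes in library 1 and 4 in library 2, among 193 and 119 clusters. In each of these lists the share of enriched clusters was below that over all clusters in both libraries, and this was not tested. These gene medians are set beside the medians of −3.26 and −3.47 of the 10 RNAs, with no test between the lists.

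**Figure D3:**
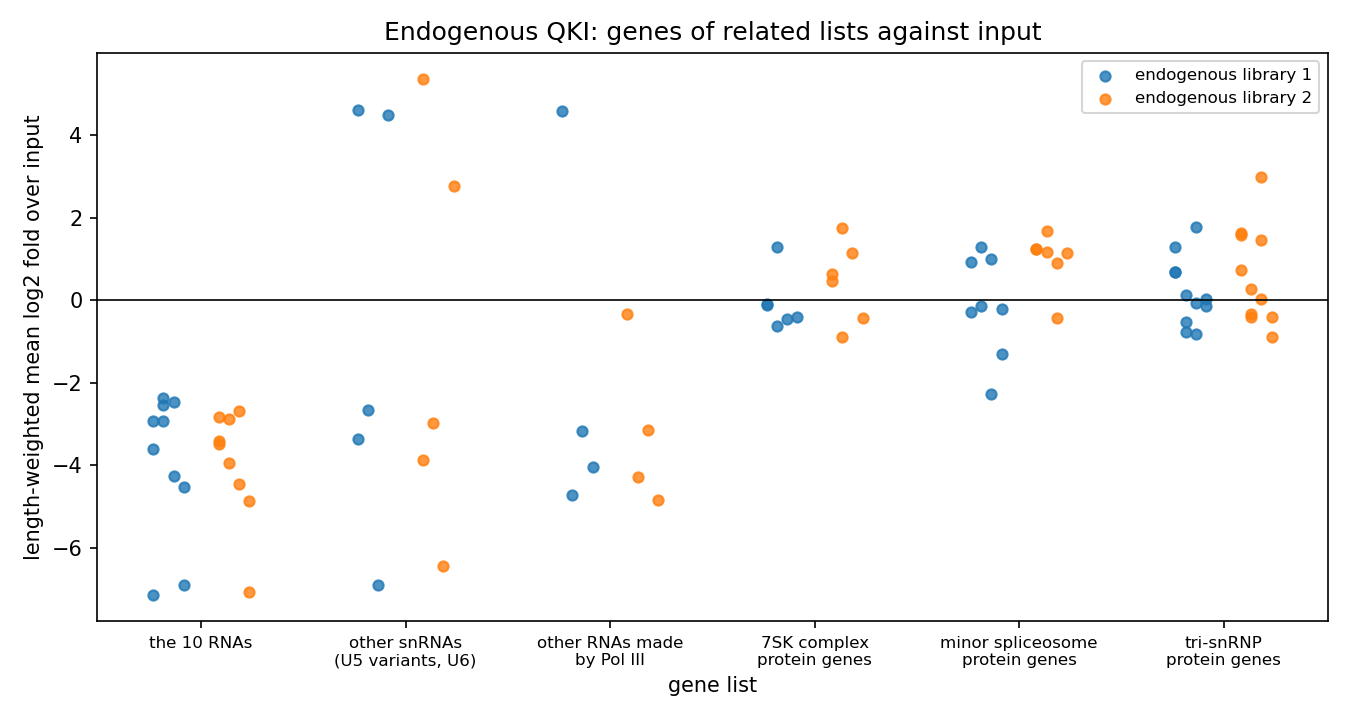
Length-weighted mean log2 fold over input per gene (y axis) for the 10 RNAs and 5 related gene lists (x axis), library 1 in blue and library 2 in orange. The 10 RNAs lie between −7.15 and −2.36, the U6 genes found and RNY4 lie above input, and the protein genes lie on both sides of 0.

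For the tagged proteins the comparison is bounded by what their lists hold. The mutant and wild type lists hold only clusters above input, so an RNA with no cluster there was either not called or not above input, and no size below input can be read. Mutant library 1 and both wild type libraries listed no cluster overlapping any of the 10 RNAs on the same strand. Mutant library 2 listed 12 clusters at 7 of them, with log2 folds between 0.13 and 0.76. These were low for that library, whose median was 1.11, and 39.8% of its clusters were below 0.76.

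By RNA, the highest fold in mutant library 2 was 0.76 at RN7SK, at the cap of 400 on −log10 p. It was 0.75 at RNU4ATAC with a −log10 p of 20.5, and 0.48 at RNU11 with 27.7. RMRP was at 0.17 with 28.7. The other folds were 0.67 at RNU4-1, 0.44 at RNU6ATAC and 0.19 at RNU4-2, each with a −log10 p at or below 1.04. RNU5A-1, RNU5B-1 and RNU12, which had the 3 lowest weighted means in endogenous library 1, had no cluster there. At RN7SK the listed cluster, at 52860497 to 52860568, lay in the 5′ stretch, and at RNU11 the 2 listed clusters ended at 28975178, before the lowest endogenous stretch. With a −log10 p of at least 3 required, 9 clusters at 4 RNAs remained.

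Mutant library 2 listed more of the regions below input in general. Of 8179 endogenous library 1 clusters that were below input in both endogenous libraries, 39.8% overlapped a cluster of mutant library 2, against 29.6% for mutant library 1, 21.6% for wild type library 1 and 19.2% for wild type library 2. Of the 25 such clusters at these RNAs, 12, or 48.0%, overlapped one in mutant library 2, a share near that background, and 0 did so in the other 3 tagged libraries. The presence of these RNAs therefore rests on 1 mutant library and was not seen in the other.

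**Figure D4:**
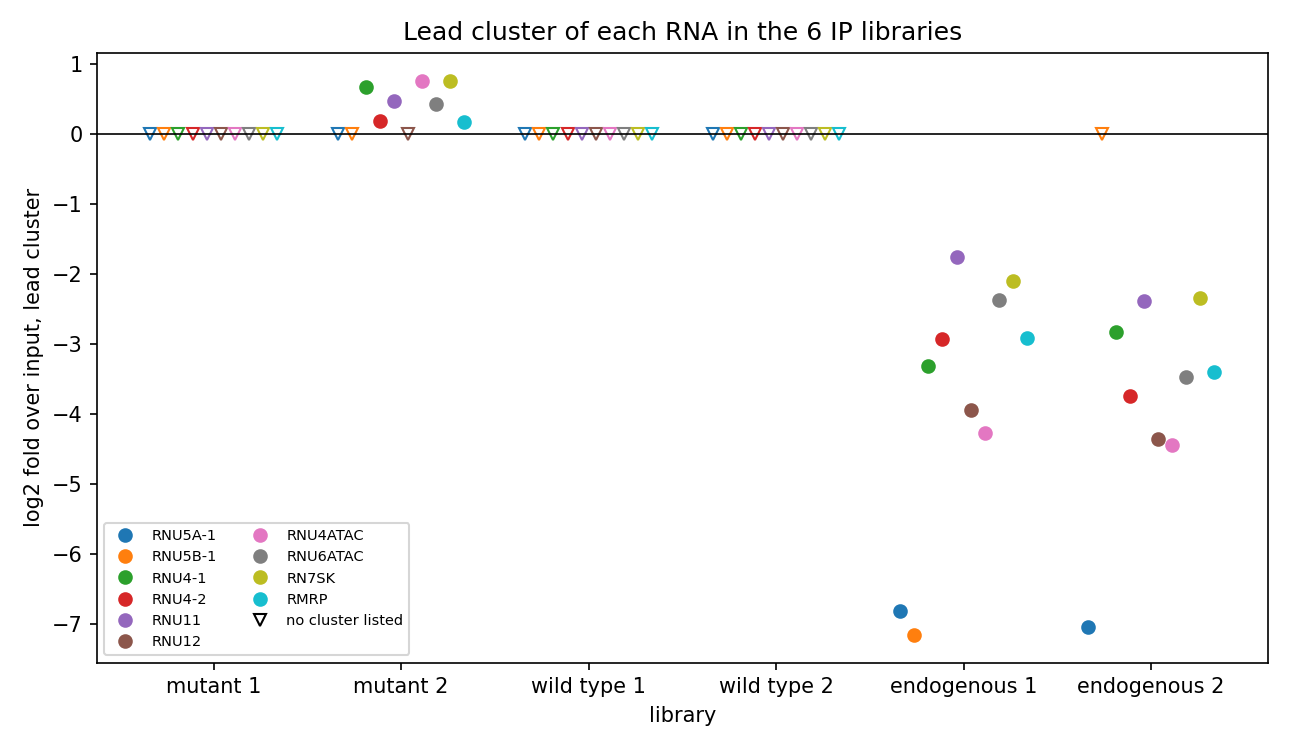
Log2 fold over input of the lead cluster of each RNA (y axis) in the 6 IP libraries (x axis), with 1 colour per RNA. Open triangles drawn on the 0 line mark RNAs with no cluster listed and are not values. Mutant library 2 shows 7 RNAs between 0.17 and 0.76, and the endogenous libraries show all values below 0.

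None of the 10 RNAs was enriched in any library. The enrichment thresholds were passed by 0.0405% and 0.304% of all clusters in mutant libraries 1 and 2, by 2.07% and 1.89% in wild type libraries, and by the shares given above in endogenous libraries. The authors' reproducible peak lists held 55 peaks for the mutant, 3671 for wild type and 12409 for endogenous QKI, and 0 of them overlapped these RNAs. This adds nothing to the values above. The endogenous clusters at these RNAs were all below input, and among tagged libraries only mutant library 2 listed any.

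The comparison of mutant with wild type asks how the 2 substitutions change contacts, and could not be made at these RNAs. Of 5356 regions with a cluster in all 4 tagged libraries, none held one of them. When a missing cluster was set to 0 in place of being left out, 12 regions at 7 RNAs could be fitted, with mutant minus wild type differences between 0.06 and 0.38. Each of these differences rests on 1 listed value, from mutant library 2, and 3 values set to 0, so the limma test could call none of them and says nothing about a difference. The comparison of wild type with endogenous QKI had 32631 regions, also with none at these RNAs. At the level of the lists, wild type QKI-5 had no cluster above input at any of the 10 RNAs and endogenous QKI had clusters below input, and antibody and transfection cannot be told apart from the protein's source.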

How the data were processed

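The 10 RNAs and the gene lists were chosen with earlier results of these data known. All 10 RNAs are named. Of each other list, examples were named by the highest −log10 p, and RNU5D-1, RNU5E-1, RNU5F-1, RPPH1 and RNY4 were named after their values were seen.

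The submitters' processing notes name STAR, cutadapt, UMI-tools and SAMtools and build hg19; no version or peak caller is given in the sources used here. For each deposited cluster the authors give a log2 fold of IP over input and a −log10 p, capped at 400. Inputs enter only through these folds. Gene names come from the deposited annotated endogenous lists, and tagged clusters were matched by an overlap of at least 1 base on the same strand. Coordinates are 1-based.

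Python 3.11.15, bedtools 2.31.1, R 4.3.3 and limma 3.58.1 were used. Each region's lead cluster in a library was that of the highest −log10 p (at these RNAs all are 0 in endogenous libraries, so the highest log2 fold decided). Lead values were fitted with lmFit and eBayes, with Benjamini-Hochberg adjustment over all regions. The fit was tested on simulated data. Same-numbered libraries did not deviate together (correlations of −0.04 between mutant and wild type and 0.01 between wild type and endogenous), so no block was used. A planned motif search was not run, since no genome of this build was used here. A marker list of the embryonic kidney line is not reported here.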

Additional observations from a re-analysis of the deposited data

How the results depend on the processing

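The endogenous result kept its direction and its 9 RNAs called lower (limma, adjusted p of at most 0.05) with the lead cluster chosen by fold, with centring, with robust eBayes and with clusters matched without chaining, where the highest adjusted p among them ranged from 0.000502 to 0.00631. Choosing the lead by fold could change no fold at these RNAs, where the highest fold already decided. Robust eBayes gave the same standard error and adjusted p there as the main fit. Only centring and matching without chaining changed the folds tested at these RNAs. A filter on −log10 p left 17954 regions, 17890 higher and 0 lower at adjusted or unadjusted p, with none at these RNAs, and so gave no value. Enrichment stayed at 0 RNAs with a log2 fold of at least 2, which could add none, since the highest fold at these RNAs in any library was 0.76. The other settings tried for enrichment were stricter than the thresholds used and could not raise a count of 0. The median weighted fold of −3.32 ranged from −3.47 to −3.26 when either endogenous library was left out. Of 20 alternative values of single RNAs, 4, at RNU11, RNU12 and RN7SK, moved by more than 1 SD. The lead cluster was at −2.07, −4.14 and −2.22, higher than the weighted mean, and the unweighted mean of RNU11 was at −2.85, lower than it. All 20 were below input, which was fixed in advance because every endogenous cluster of these RNAs was below input. RNU5B-1, RNU4ATAC and RNU6ATAC had at most 1 cluster per library, so their alternatives could not differ from the reported value. The 7 RNAs listed for the mutant became 4 with a −log10 p of at least 3, and ranged from 0 to 7 when either mutant library was left out, with 0 without mutant library 2; these alternatives were chosen after seeing the data. With the replicate number as a block, as without it, no region of these RNAs entered either comparison of 2 groups, so their 0 calls carry no information on stability. Over all regions, calls with the block came to 1 higher and 27 lower in mutant against wild type in place of 1 and 32, and for wild type against endogenous to 632 higher and 3559 lower in place of 260 and 1852. Setting missing clusters to 0 was the only alternative of these 2 comparisons in which regions of these RNAs entered, and it could call none. Depth is unknown, and for the tagged libraries nothing below input can be read.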

Other observations

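Genes named as copies of these RNAs elsewhere in the genome, listed after the data had been seen, were mostly below input in the endogenous libraries. At copies of RN7SK, 40 of 41 clusters at 36 copies were below input in endogenous library 1, with a median of −1.71, and 12 of 12 clusters at 11 copies in library 2, with a median of −1.76. The tagged lists, which hold only clusters above input, had a cluster at 17 and 20 of these RN7SK copies in mutant libraries 1 and 2, with median lead folds of 1.31 and 1.02, and at 9 and 8 in wild type libraries 1 and 2, with medians of 0.67 and 0.34. Many of these lead clusters had a −log10 p below 1. More listing in the mutant was also general: 29.6% and 39.8% of all endogenous library 1 clusters below input in both endogenous libraries overlapped a mutant cluster. The shares for wild type libraries 1 and 2 were 21.6% and 19.2%. A difference between groups at the copies was not tested. The lead cluster of RN7SKP168 was at 3.69 in mutant library 1, with a −log10 p of 2.94, and at 3.91 in mutant library 2, with a −log10 p of 3.45, and so passed both enrichment thresholds in mutant library 2. No other RN7SK copy had a lead cluster past both thresholds in a tagged library. RN7SKP168 was at −1.01 in endogenous library 1. The U5 copies RNU5A-8P, with −3.87 and −3.86, and RNU5E-4P, with −4.59 and −4.84, were below input in both libraries. RMRPP3, a copy of RMRP, had 0.17 and 0.62 in mutant libraries 1 and 2 and −3.01 in endogenous library 1.

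Clusters at RNU4ATAC16P, a copy of RNU4ATAC on chromosome 12, lay above input, where those at RNU4ATAC itself lay below. Whether their reads came from a transcript of the copy or from other RNA across the same bases was not tested. RNU4ATAC16P had 1.19 in mutant library 1, with a −log10 p of 0.195, and no cluster in mutant library 2. In wild type libraries 1 and 2 its lead clusters were at 3.94 and 2.69, with a −log10 p of 4.005 and 2.51, so it passed both enrichment thresholds in wild type library 1. In endogenous libraries its lead clusters were at 2.06 and 3.15, with a −log10 p of 1.52 and 1.99, and neither passed. RNU4ATAC itself had no cluster in wild type libraries and −4.26 and −4.44 in endogenous libraries. The other copy found, RNU4ATAC11P, had −0.74 in endogenous library 1.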
